A study of Mus musculus with 7 samples.

Results

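The regions described here are stretches of the mouse genome that lay under peaks of 2 opposed histone marks in every library of a ChIP-seq study of globose basal cells. H3K27me3 and H3K27ac were each profiled in 2 libraries. The 4 broad-peak lists were intersected base by base on chromosomes 1 to 19, and contiguous stretches of at least 500 bp were kept. This left 3750 stretches with a summed length of 4.95 Mb, out of 6908 intersected pieces that summed to 5.73 Mb. By library, 93104 and 63826 H3K27me3 peaks and 76790 and 63503 H3K27ac peaks entered (replicates 1 and 2 of each). The stretches were 9.90% of the length covered by both H3K27me3 libraries and 7.63% of the length covered by both H3K27ac libraries. The stretches were thus chosen by the peak calls of all 4 libraries, and their peak values are given as description and carry no test.

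Globose basal cells are the dividing progenitors of the olfactory epithelium, which replaces its sensory neurons throughout life. Donors of the cells were adult wild-type mice, killed 7 to 10 days after treatment with methimazole, a drug that destroys the epithelium and sets off its regeneration. Cells of 3 mice were pooled for each ChIP replicate, and cells were enriched by magnetic selection for the receptor c-Kit, which mast cells and melanocytes also bear. All groups shared the lesion and the selection, there was no unlesioned group, and sex is not stated in the labels. The labels do not say whether libraries of different marks came from the same pool. Of the 3 inputs, 1 is labelled for both H3K27me3 replicate 1 and H3K27ac replicate 2.

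Polycomb Repressive Complex 2 (PRC2) trimethylates lysine 27 of histone H3, and the resulting H3K27me3 is a mark of repressed developmental genes, held mostly at CpG-rich promoters. Acetylation of the same lysine by p300 and CBP marks active promoters and enhancers. A lysine can carry only 1 of these groups at a time. A stretch with peaks of both marks can therefore reflect different H3 copies of a nucleosome, or different nucleosomes, alleles, cells or pools of mice. In these libraries, made from pooled cells, those cannot be told apart.

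Promoters of 7 genes show the kinds of sequence on which the marks met or stayed apart. Each line gives the 250 bases before an annotated start, 5′ to 3′, from RefSeq on GRCm38.p6, with CpG dinucleotides in capitals. Kit, Neurog1 and Sox2 are progenitor genes whose whole window lay in a stretch. Ebf1 is shown because its window also lay in a stretch although only 40% of its bases were G or C. Neurog2 is a relative of Neurog1 with H3K27me3 only, and Ezh2 and Rpl31, for the PRC2 catalytic subunit and a ribosomal protein, carried H3K27ac only.
Kit promoter, in a stretch, chr5:75574737-75574986, plus strand: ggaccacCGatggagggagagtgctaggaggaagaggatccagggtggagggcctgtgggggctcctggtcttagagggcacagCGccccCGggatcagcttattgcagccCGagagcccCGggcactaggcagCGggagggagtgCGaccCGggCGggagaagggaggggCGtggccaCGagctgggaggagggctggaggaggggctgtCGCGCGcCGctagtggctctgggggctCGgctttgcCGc
Neurog1 promoter, in a stretch, chr13:56252181-56252430, minus strand: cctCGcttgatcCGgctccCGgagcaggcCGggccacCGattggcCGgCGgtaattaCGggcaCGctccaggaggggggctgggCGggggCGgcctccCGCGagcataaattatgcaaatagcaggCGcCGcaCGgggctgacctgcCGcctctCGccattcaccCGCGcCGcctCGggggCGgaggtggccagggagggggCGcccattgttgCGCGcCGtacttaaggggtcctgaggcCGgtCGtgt
Sox2 promoter, in a stretch, chr3:34649745-34649994, plus strand: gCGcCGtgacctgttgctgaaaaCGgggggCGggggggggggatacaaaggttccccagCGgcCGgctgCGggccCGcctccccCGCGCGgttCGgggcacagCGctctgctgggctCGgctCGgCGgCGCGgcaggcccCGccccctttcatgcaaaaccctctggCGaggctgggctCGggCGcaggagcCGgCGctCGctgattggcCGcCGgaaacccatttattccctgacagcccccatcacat
Ebf1 promoter, in a stretch, chr11:44617850-44618099, plus strand: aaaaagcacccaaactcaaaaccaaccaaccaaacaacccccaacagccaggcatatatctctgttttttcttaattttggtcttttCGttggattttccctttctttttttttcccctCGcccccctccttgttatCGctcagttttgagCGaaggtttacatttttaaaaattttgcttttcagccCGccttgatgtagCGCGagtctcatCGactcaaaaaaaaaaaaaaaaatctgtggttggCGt
Neurog2 promoter, H3K27me3 only, chr3:127632886-127633135, plus strand: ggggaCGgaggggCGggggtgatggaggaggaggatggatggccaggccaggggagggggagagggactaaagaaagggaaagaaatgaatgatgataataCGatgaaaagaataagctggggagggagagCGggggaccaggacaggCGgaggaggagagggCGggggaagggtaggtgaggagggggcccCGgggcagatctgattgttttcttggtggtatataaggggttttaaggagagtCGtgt
Ezh2 promoter, H3K27ac only, chr6:47595031-47595280, minus strand: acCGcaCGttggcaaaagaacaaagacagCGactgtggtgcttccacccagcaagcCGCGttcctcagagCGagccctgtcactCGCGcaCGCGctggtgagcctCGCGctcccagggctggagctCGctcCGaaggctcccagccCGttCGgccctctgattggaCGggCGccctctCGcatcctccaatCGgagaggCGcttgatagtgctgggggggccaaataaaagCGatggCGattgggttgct
Rpl31 promoter, H3K27ac only, chr1:39367601-39367850, plus strand: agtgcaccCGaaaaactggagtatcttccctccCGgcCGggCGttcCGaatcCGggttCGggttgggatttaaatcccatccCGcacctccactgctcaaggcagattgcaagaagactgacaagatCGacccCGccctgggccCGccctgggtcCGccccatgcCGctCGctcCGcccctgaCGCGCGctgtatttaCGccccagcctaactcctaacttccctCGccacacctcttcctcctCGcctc
The windows held 17 CpGs at Kit, 29 at Neurog1, 27 at Sox2 and 9 at Ebf1, against 8 at Neurog2, 23 at Ezh2 and 21 at Rpl31. In these 7 windows CpG number did not order the genes by class of mark.

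MicroRNAs are short RNAs that pair with target messages through a seed, bases 2 to 8 of the mature strand. Of 919 annotated hairpins, 25 (2.72%) overlapped a stretch and 13 more lay within 1 kb of one. The 6 mature strands below, with the seed in capitals and sequences from RefSeq on GRCm38.p6, are shown because pairs of them share a seed or a stretch. miR-212 and miR-132 are neuronal microRNAs of 1 cluster and share the seed AACAGUC. miR-148a and miR-152 lie on different chromosomes and share the seed CAGUGCA. miR-96 and miR-183 belong to a cluster transcribed in sensory cells, and their seeds differ.
mmu-miR-212-3p, chr11:75173443-75173464, plus strand: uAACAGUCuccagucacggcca
mmu-miR-132-3p, chr11:75173723-75173744, plus strand: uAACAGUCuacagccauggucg
mmu-miR-148a-3p, chr6:51269829-51269850, minus strand: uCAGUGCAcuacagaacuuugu
mmu-miR-152-3p, chr11:96850439-96850459, plus strand: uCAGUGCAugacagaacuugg
mmu-miR-96-5p, chr6:30169506-30169528, minus strand: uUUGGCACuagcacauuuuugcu
mmu-miR-183-5p, chr6:30169711-30169732, minus strand: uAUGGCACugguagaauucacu
The Mir212 hairpin lay inside a stretch of 1061 bp (chr11:75172617-75173677), and Mir132 lay within 1 kb of it. Fold enrichment here is the authors' value for the whole peak that holds a stretch, relative to input. It is not on a common scale between antibodies, so its order between the marks does not say which mark was more abundant. At the Mir212 stretch it was 10.1 and 6.41 for H3K27me3, against 5.89 and 4.84 for H3K27ac (replicates 1 and 2 of each). Mir96 and Mir183 lay inside the same stretch of 898 bp (chr6:30169410-30170307), where the order was the opposite, with 5.43 and 3.80 for H3K27me3, against 10.5 and 9.07 for H3K27ac. The Mir148a hairpin overlapped a stretch of 1162 bp in part, with 5.30 and 4.04 for H3K27me3, against 6.70 and 4.79 for H3K27ac. Mir152 lay within 1 kb of a stretch of 506 bp at the start of Copz2. Mir137, a microRNA of neural progenitors, lay inside a stretch of 853 bp with 6.87 and 4.63 for H3K27me3, against 3.77 and 3.63 for H3K27ac.

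Gene starts were the most frequent place of a stretch. Of the 3750 stretches, 2184 (58.2%) came within 1 kb of the start of a protein-coding gene, 947 (25.3%) lay elsewhere in a gene body and 619 (16.5%) were intergenic. Of the 18449 regions of at least 500 bp with H3K27me3 in both libraries and no overlap with H3K27ac consensus, 10.8% lay at a start, 38.9% in a gene body and 50.2% between genes. Of the 28882 corresponding H3K27ac regions, 30.0% lay at a start, 46.3% in a gene body and 23.6% between genes. The share at a start was higher among the stretches than among the regions of either mark alone. Regions that overlapped the other mark were left out of the latter sets. In both libraries, H3K27ac was found at 62.8% of protein-coding gene starts and H3K27me3 at 26.3%. The definition of the sets thus takes out regions at starts, and the contrast carries no further reading. Regions are not replicates, so the shares of regions at a start carry no test. Starts were known from a promoter table for 16457 of 20665 protein-coding genes, and for the other 4208 either annotated gene end was used. With known starts alone the share of stretches at a start was 43.8%, and regions of either mark alone were not counted in this way. Leaving out each library in turn, with either gene end used as before, gave 46.9% to 53.8%.

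The stretches were short beside the peaks that held them. Their median length was 1027 bp, the quartiles were 712 and 1579 bp, and the longest was 13008 bp. Those at a start had a median length of 1180 bp, against 862 bp in gene bodies and 893 bp between genes. Just inside the length threshold lay 242 stretches of 500 to under 550 bp, and just outside it lay 251 pieces of 450 to under 500 bp. A stretch covered a median of 47.5% and 54.6% of its H3K27me3 peak and of 51.9% and 67.1% of its H3K27ac peak (replicates 1 and 2). The largest share of stretch ends was set by H3K27ac replicate 2 (35.5%) and the smallest by H3K27ac replicate 1 (16.1%).

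Around the start itself, both marks leaned into the gene. Among 1544 starts with a stretch, the most upstream known start of each gene, the stretch covered the start base in 1079 (69.9%). Its cover was highest 200 bp downstream, at 80.1% of starts, and it was 12.6% at 1000 bp upstream and 44.8% at 1000 bp downstream. H3K27me3 in both libraries covered at most 87.2% of these starts, at 300 bp downstream, and H3K27ac at most 93.1%, at 200 bp downstream. At 1000 bp downstream H3K27ac covered 57.5% of these starts, against 38.5% of starts with H3K27ac only. Starts with a stretch were chosen for at least 500 bp under both marks, and H3K27ac-only starts for any covered base. The rule itself thus favors wider cover at the former, and the contrast carries no further reading. With the 1217 genes that have a single known start, the stretch covered 13.4% of starts at 1000 bp upstream and 44.0% at 1000 bp downstream.

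**Figure D1:**
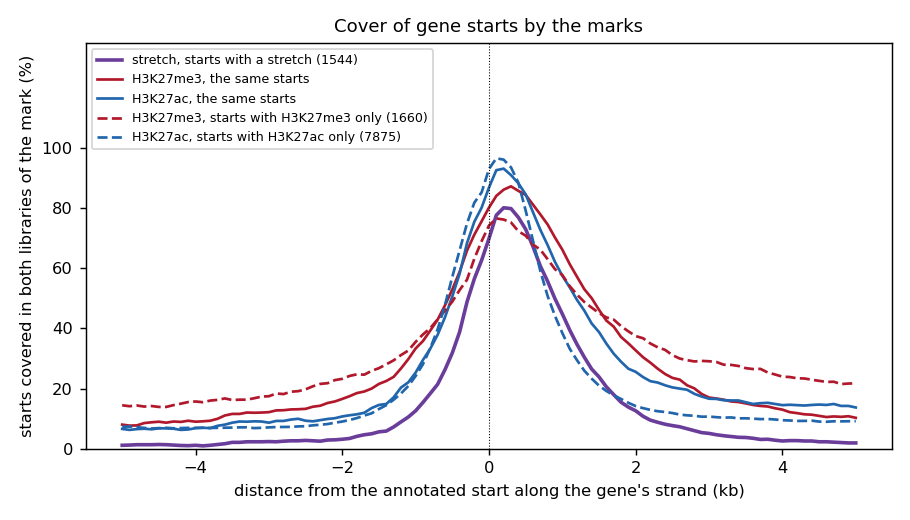
Share of gene starts (y axis, %) covered by a stretch or by a mark in both of its libraries, at each distance from the start (x axis, kb, negative upstream). Solid lines are the 1544 starts with a stretch and dashed lines the 1660 starts with H3K27me3 only and 7875 starts with H3K27ac only. The stretch line peaks at 80.1% just downstream of the start.

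At the gene level, 2209 of 20665 protein-coding genes (10.7%) had a stretch in the start window. The count rests on H3K27me3 replicate 2, without which 4057 genes (19.6%) had a stretch of the other 3 libraries. Without H3K27me3 replicate 1, H3K27ac replicate 1 or H3K27ac replicate 2 it was 2472, 2387 or 2801 genes, the last of these 13.6% of all. Among genes with a known start the count was 1638 of 16457 (9.95%), and among those read at either end it was 571 of 4208 (13.6%). H3K27me3 in both libraries was found at 5444 genes (26.3%) and H3K27ac in both libraries at 12975 (62.8%). A further 1101 genes (5.33%) had both marks in the window but no stretch of 500 bp, 2134 (10.3%) had H3K27me3 only, 9665 (46.8%) had H3K27ac only and 5556 (26.9%) had neither. A gene counted as having a mark where both libraries of that mark covered the same bases in its window, so a gene with 1 mark only may still have a peak of the other mark in a single library. Of the genes for long noncoding RNAs, 551 of 12408 (4.44%) were at a stretch. Per 100 protein-coding genes, stretches ran from 12.5 on chromosome 7 to 25.1 on chromosome 15.

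Genes that define the progenitor state were often under both marks. Of 15 listed genes of globose basal cells and neuronal progenitors, 11 had a stretch (10.7% of all genes did), among them Kit, Neurog1, Neurod1, Insm1, Lgr5, Sox2, Pax6, Lhx2 and Sox11. The other 4, Hes6, Gadd45g, Ezh2 and Top2a, had H3K27ac only. No gene of the list had H3K27me3 without H3K27ac. Kit, whose product was the handle for selecting these cells, had a stretch of 1436 bp over its start (chr5:75574574-75576009). Its fold enrichment was 5.11 and 3.41 for H3K27me3, against 6.80 and 4.39 for H3K27ac. All 4 values lay near the medians of all genes with a stretch, which were 5.09 and 3.92 for H3K27me3, against 6.02 and 4.73 for H3K27ac.

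The fold enrichment of the marks overlapped at most of the neuronal commitment genes named here. Here and below, overlap or order of these values describes the peaks and not the amounts of the marks, because the antibodies differ. Neurog1, a bHLH factor of neuronal commitment, had 7.12 and 4.24 for H3K27me3, against 5.67 and 4.54 for H3K27ac, and Neurod1, a factor of the immediate neuronal precursors, had 7.40 and 4.41 for H3K27me3, against 4.66 and 4.80 for H3K27ac. At both genes the ranges of the marks overlapped. Insm1, a zinc finger factor needed for neuronal progenitor divisions, had 10.8 and 5.83 for H3K27me3, against 18.6 and 10.7 for H3K27ac, and the marks overlapped there too. Sox11, a factor of early neurons, had 5.24 and 3.82 for H3K27me3, against 21.0 and 12.0 for H3K27ac, so that both H3K27ac values lay above both H3K27me3 values.

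The factors shared with the placode and with multipotent cells had long stretches. Pax6, a regulator of eye and nasal development, had 2 stretches in its start windows that summed to 14515 bp, more than at any other gene, and the longer one, over the start, had 8.17 and 6.20 for H3K27me3, against 7.96 and 6.36 for H3K27ac. Lhx2, a LIM homeobox factor of olfactory neuron development, had a stretch of 7960 bp with 8.67 and 4.94 for H3K27me3, against 13.8 and 10.2 for H3K27ac. At Lhx2 both H3K27ac values exceeded both H3K27me3 values. Sox2, a factor of multipotent basal cells, had 6.40 and 4.92 for H3K27me3, against 9.69 and 6.61 for H3K27ac over 3096 bp. Lgr5, which encodes an R-spondin receptor of cycling basal cells and is not such a factor, had a shorter stretch of 1729 bp. Its values were 4.95 and 3.19 for H3K27me3, against 6.04 and 4.43 for H3K27ac.

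**Figure D2:**
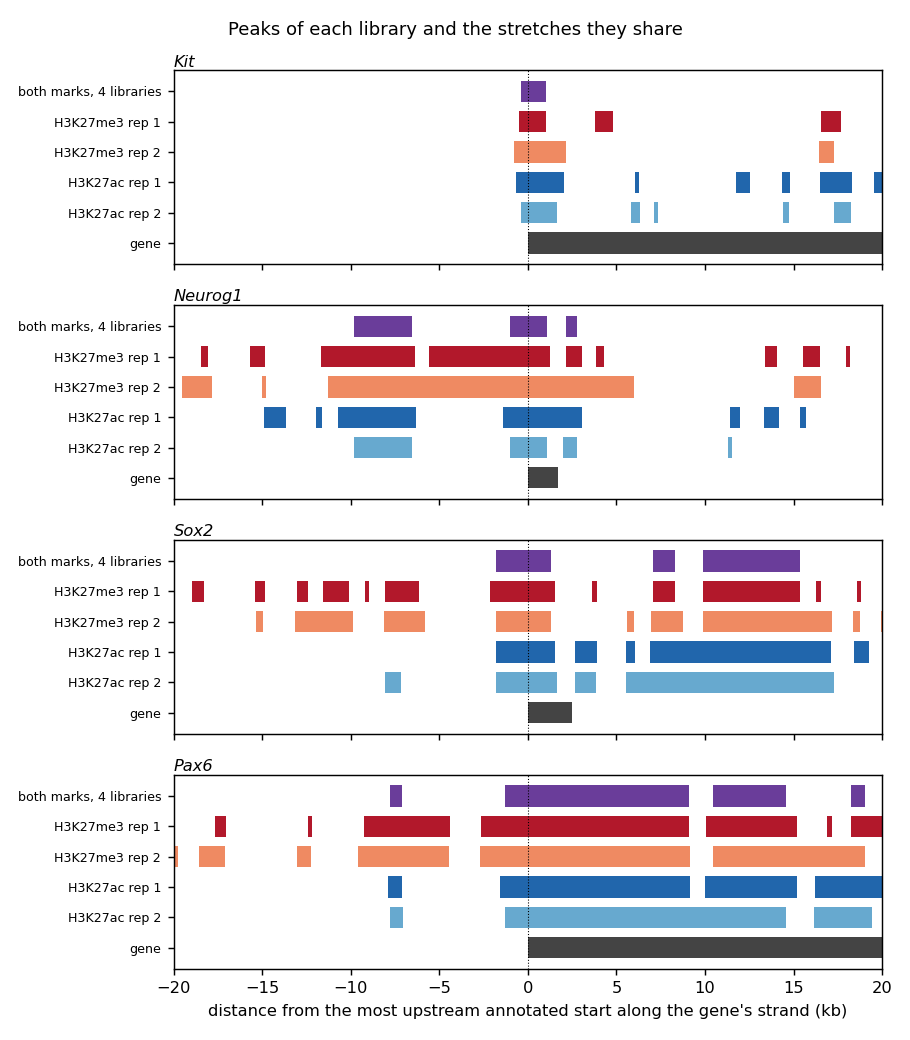
Peaks of each library (colored bars), the stretches they share (top row of each panel) and the gene (bottom row) around 4 progenitor genes, by distance from the most upstream annotated start (x axis, kb, drawn to 20 kb on each side). At Kit the stretch runs from -0.41 to 1.02 kb, at Neurog1 and Sox2 further stretches lie outside the gene, and at Pax6 the stretch at the start runs to 9.09 kb.

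The listed genes with H3K27ac only were not alike in H3K27me3 replicate 1. Hes6, a bHLH factor that promotes neuronal differentiation, had an H3K27me3 peak of 2.80 in replicate 1 and no peak in replicate 2, with 8.67 and 7.21 for H3K27ac. Gadd45g, a growth arrest gene, had 3.90 in H3K27me3 replicate 1 and no peak in replicate 2, with 10.5 and 7.76 for H3K27ac. Ezh2 and Top2a, a topoisomerase of dividing cells, had no H3K27me3 peak in either library. Without H3K27me3 replicate 2 the count of the list was 12 of 15 (19.6% of all genes had a stretch then), and without any other library it was 11.

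Other proneural genes split between both marks and H3K27me3 only. Of 23 bHLH genes of this class, 7 had a stretch, 11 had H3K27me3 only, 2 had H3K27ac only and 3 had neither. Besides the progenitor genes above, stretches lay at Atoh8 with 6.71 and 5.27 for H3K27me3, against 3.93 and 3.25 for H3K27ac, and at Nhlh1, a factor of newly formed neurons, with 3.58 and 3.40 for H3K27me3, against 8.22 and 3.92 for H3K27ac. Both H3K27me3 values were the higher ones at Atoh8 and the lower ones at Nhlh1. Ascl2 had H3K27me3 only (8.52 and 5.63, with an H3K27ac peak of 3.17 in replicate 1 and none in replicate 2), Ascl3 had H3K27ac only (5.81 and 5.27) and Ascl4 had neither mark in both of its libraries. Neurog2, whose promoter is printed above, had 14.1 and 10.1 for H3K27me3 and an H3K27ac peak of 3.23 in replicate 1 alone. Without H3K27ac replicate 2 the count of genes with a stretch was 11 of 23, beside 13.6% of all genes.

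Stretches also lay at many genes of the neurons that the progenitors give rise to. Of 19 genes of immature neurons, 14 had a stretch, 2 had both marks but no stretch and 3 had H3K27ac only. All 4 Ebf genes, which encode helix-loop-helix factors that drive olfactory neuron genes, were among the 14. Ebf3 had a stretch of 9012 bp with 8.82 and 4.65 for H3K27me3, against 12.8 and 9.56 for H3K27ac, and Ebf2, read at either end, had one of 8848 bp with 7.18 and 4.60 for H3K27me3, against 12.4 and 8.44 for H3K27ac. Ebf1 had 5.21 and 3.88 for H3K27me3, against 12.0 and 7.95 for H3K27ac. At these 3 genes both H3K27ac values exceeded both H3K27me3 values. At Ebf4 the marks overlapped, with 5.24 and 3.96 for H3K27me3, against 8.33 and 4.60 for H3K27ac. Tubb3, the neuronal tubulin, had 5.14 and 3.66 for H3K27me3, against 9.28 and 6.23 for H3K27ac. The stathmin genes Stmn2, Stmn3 and Stmn4 and the collapsin response genes Dpysl3 and Dpysl5 also had stretches. Gap43 and Stmn1, of growing axons, had H3K27ac in both libraries and an H3K27me3 peak in replicate 1 only.

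Of 17 genes of mature olfactory neurons, 5 had a stretch: Ano2, Gng13, Rtp2, Pde4a and Rgs11. Ano2 encodes the chloride channel of the cilia, Gng13 a G protein subunit and Rtp2 a chaperone of odorant receptors. Ano2 had 3.70 and 3.13 for H3K27me3, against 4.43 and 3.11 for H3K27ac, and Rtp2 had 4.27 and 2.98 for H3K27me3, against 9.57 and 5.98 for H3K27ac. The marks overlapped at Ano2 and did not at Rtp2. Omp, the defining protein of mature olfactory neurons, had H3K27ac only (6.18 and 4.18), Gnal, the olfactory G protein, had H3K27me3 only (7.88 and 5.67, with an H3K27ac peak of 2.60 in replicate 1 alone), and Adcy3 had H3K27ac in both libraries and H3K27me3 in replicate 1 alone. Without H3K27me3 replicate 2 the count of this list was 8 of 17, beside 19.6% of all genes.

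**Figure D3:**
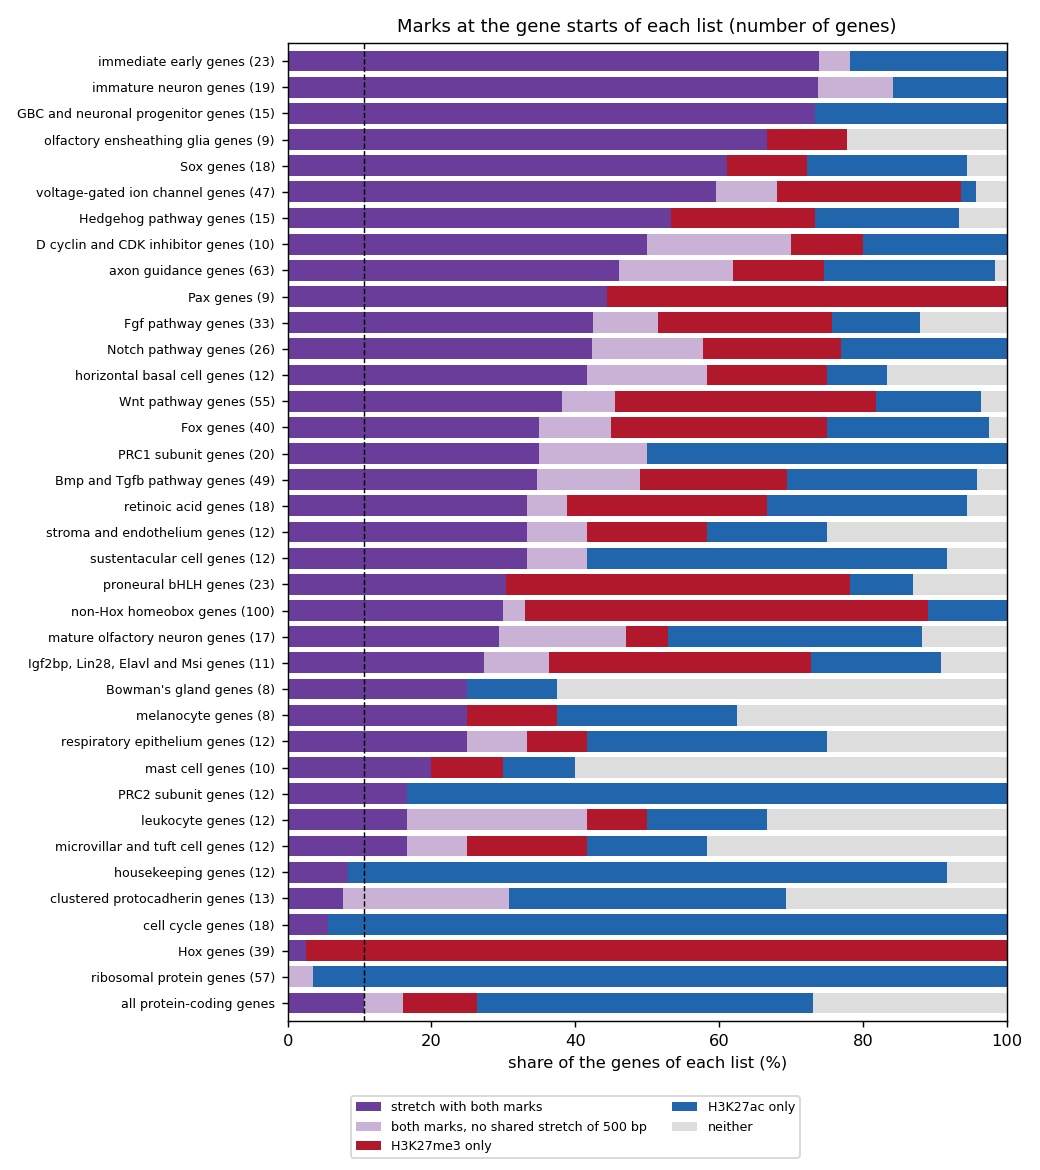
Share of the genes of each of the 36 lists (y axis, number of genes in brackets) in 5 classes of mark at the start window (x axis, %), ordered by the share with a stretch, with all protein-coding genes at the bottom. The dashed line is the 10.7% of all genes with a stretch, and 31 of the 36 lists lie above it.

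The 36 lists hold 841 genes on chromosomes 1 to 19, of which 278 (33.1%) had a stretch, 65 both marks but no stretch, 212 H3K27me3 only, 226 H3K27ac only and 60 neither. The lists were written with earlier results of these data known and share members, so their shares describe these genes and are not evidence about the lists. Among 39 Hox genes, which set position along the body axis, 38 had H3K27me3 only and 1, Hoxd8, had a stretch of 743 bp (11.1 and 7.99 for H3K27me3, against 3.84 and 2.75 for H3K27ac). Without H3K27ac replicate 2 the Hox count was 5 of 39, near the 13.6% of all genes with a stretch under that setting. Among 9 Pax genes, 4 had a stretch (Pax3, Pax6, Pax7 and Pax9) and 5 had H3K27me3 only, among them Pax1, Pax2 and Pax4. At Pax3, Pax7 and Pax9, regulators of neural crest, muscle and pharyngeal tissues, H3K27me3 was 9.73 to 11.6 in replicate 1 and 6.73 to 7.60 in replicate 2, against 3.44 to 3.76 and 3.23 to 3.84 for H3K27ac. Pax6 thus differed from the other 3 in its H3K27ac values, all above those of the others.

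Among 100 homeobox genes outside the Hox clusters, 30 had a stretch, 56 had H3K27me3 only, 11 had H3K27ac only and 3 had both marks but no stretch. Both Otx genes, 4 of 6 Irx genes and 3 of 6 Dlx genes had a stretch, and so did 1 of 14 Nkx genes, 1 of 10 Lhx and Lmx genes and none of 8 Pou genes. These families were chosen after their values were seen, and their differences were not tested. Of the 15 longest stretches 7 lay at homeobox genes, Otx1, Uncx, Pitx1, Pax6, Six2, Lhx2 and Six3. The longest of all, 13008 bp (chr4:109974008-109987015), lay at Dmrta2, a DM domain factor of the developing cortex, with 7.32 and 5.08 for H3K27me3, against 10.5 and 8.43 for H3K27ac. Otx1, a head patterning factor read at either end, had 12071 bp with 7.19 and 4.58 for H3K27me3, against 9.58 and 7.93 for H3K27ac. Uncx, a homeobox factor of somites and olfactory neurons, had 11474 bp with 9.90 and 5.23 for H3K27me3, against 12.3 and 9.56 for H3K27ac. Both H3K27ac values exceeded both H3K27me3 values at Dmrta2 and Otx1, and the marks overlapped at Uncx.

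The rest of the 15 longest stretches ran from 7000 to 11167 bp. They lay at Pitx1, Grk2, Pax6, Six2, Ebf3, Ebf2, Hes1, Lhx2, Aqp5, Nr2e1 and Six3, and between genes nearest to Cbx8. Nr2e1, the orphan receptor of neural stem cells, was the only one of the 15 with both H3K27me3 values above both H3K27ac values, at 8.13 and 5.50 for H3K27me3, against 4.71 and 4.09 for H3K27ac. Grk2, a receptor kinase and not a developmental regulator, had the lowest H3K27me3 of the 15, at 4.85 and 4.06, with 5.38 and 4.35 for H3K27ac. Ranking stretches by their worst library instead, within the fold enrichment of each list, put Insm1 and Lhx2 near the top, with Lyn, Nfil3, Sgms2, Uncx, Ebf3, Zfp36l1, Runx1, Lats2, Map6 and Ptpn3 also among the 15 best. For Insm1 the lowest percentile of its 4 peaks within their lists was 96.5. Lats2, a kinase of the Hippo pathway, had 6.18 and 4.45 for H3K27me3, against 18.9 and 10.6 for H3K27ac. Runx1 and the tyrosine kinase gene Lyn are best known from blood cells and had 14.3 and 15.7 in H3K27ac replicate 1.

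Of 18 Sox genes 11 had a stretch, 2 had H3K27me3 only, 4 had H3K27ac only and 1 had neither. Sox2, Sox6, Sox7, Sox8, Sox9 and Sox10 were among the 11. Sox9, of glands and their duct cells, had 6.84 and 5.47 for H3K27me3, against 6.38 and 5.48 for H3K27ac, in overlapping ranges. Sox6, of cartilage and muscle, had 9.51 and 6.67 for H3K27me3, against 3.14 and 3.10 for H3K27ac. Sox1, of neural plate cells, had H3K27me3 only (12.9 and 7.09). Of 40 Fox genes, 14 had a stretch, 12 had H3K27me3 only, 4 had both marks but no stretch, 9 had H3K27ac only and 1 had neither. Foxd3, a neural crest factor, had 17.4 and 8.57 for H3K27me3, against 3.03 and 2.75 for H3K27ac, and Foxc1 had 11.8 and 6.31 for H3K27me3, against 8.83 and 7.34 for H3K27ac. Foxa2, an endoderm factor, had H3K27me3 only.

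In the signalling pathways, stretches lay at most receptors in the Wnt list and at most ligands in the Notch list. Of 26 Notch pathway genes, 11 had a stretch, 4 had both marks but no stretch, 5 had H3K27me3 only and 6 had H3K27ac only. The 11 included the receptors Notch1 and Notch2, 4 of 5 ligands (Dll1, Dll4, Jag1 and Jag2) and 4 of 9 Hes and Hey genes. Hes1, the Notch target that holds cells undifferentiated, had a stretch of 8601 bp with 6.21 and 4.98 for H3K27me3, against 9.37 and 8.83 for H3K27ac. Dll1 had 6.33 and 4.47 for H3K27me3, against 5.25 and 3.81 for H3K27ac, and Jag1 had 3.84 and 4.16 for H3K27me3, against 9.58 and 7.09 for H3K27ac. The marks overlapped at Dll1 and not at Hes1 or Jag1. Notch3 and Notch4 had both marks without a shared stretch of 500 bp, and Dll3 had H3K27me3 only.

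Of 55 Wnt pathway genes, 21 had a stretch, 4 had both marks but no stretch, 20 had H3K27me3 only, 8 had H3K27ac only and 2 had neither. Of 19 Wnt ligands 6 had a stretch and 11 had H3K27me3 only, whereas 8 of 10 frizzled receptors and all 4 Tcf and Lef factors, which carry the signal to DNA, had a stretch. All 4 R-spondins had H3K27me3 only. Wnt4 had 7.14 and 5.12 for H3K27me3, against 5.69 and 4.69 for H3K27ac, and Wnt5a had 7.41 and 5.35 for H3K27me3, against 3.69 and 3.18 for H3K27ac. Wnt7b had 8.74 and 6.43 for H3K27me3, against 5.83 and 4.84 for H3K27ac. Both H3K27me3 values exceeded both H3K27ac values at Wnt5a and Wnt7b. Wnt1, a midbrain ligand, had H3K27me3 only (11.6 and 6.99, with an H3K27ac peak of 3.18 in replicate 1 alone), as did Wnt2 and Wnt2b.

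Of 49 genes of the Bmp and Tgfb pathways, 17 had a stretch, 7 had both marks but no stretch, 10 had H3K27me3 only, 13 had H3K27ac only and 2 had neither. Smad genes, the transducers, had a stretch in 5 of 8 and H3K27ac only in the rest, and the receptor genes had a stretch in 2 of 9 and H3K27ac only in 7. Bmp2 had 12.0 and 7.37 for H3K27me3, against 3.81 and 3.44 for H3K27ac, whereas the receptor gene Bmpr1a had 3.11 and 3.64 for H3K27me3, against 21.1 and 17.6 for H3K27ac. Gdf11, a ligand that limits olfactory neurogenesis, had 3.56 and 3.00 for H3K27me3, against 8.83 and 4.70 for H3K27ac. In the order of their fold values Bmp2 and Gdf11 thus stood on opposite sides, with no overlap of the marks at either. Of 33 Fgf pathway genes, 14 had a stretch, 3 had both marks but no stretch, 8 had H3K27me3 only, 4 had H3K27ac only and 4 had neither. Among them 8 of 20 ligands and 3 of 4 receptors had a stretch, and Fgf2, a mitogen, had 7.76 and 5.59 for H3K27me3, against 3.40 and 3.34 for H3K27ac. Of 15 Hedgehog pathway genes 8 had a stretch, among them Dhh, Smo and all 3 Gli factors, while Shh and Ihh had H3K27me3 only and Ptch1 had H3K27ac only. Of 18 retinoic acid genes 6 had a stretch: Aldh1a3, Rarb, Rxra, Crabp1, Crabp2 and Stra6.

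Genes of axon growth and excitability made up another large group. Of 63 axon guidance genes 29 had a stretch, 10 had both marks but no stretch, 8 had H3K27me3 only, 15 had H3K27ac only and 1 had neither. All 5 EphB receptors, which repel axons on contact with ephrins, and 5 of 7 ephrins had a stretch, as did 8 of 20 semaphorins and 1 of 8 EphA receptors. Ntn1, a secreted guidance cue, had 8.31 and 5.75 for H3K27me3, against 5.92 and 5.05 for H3K27ac. Slit2, a repellent, had 5.74 and 3.96 for H3K27me3, against 6.14 and 6.12 for H3K27ac, and its receptor gene Robo2 had 4.33 and 3.33 for H3K27me3, against 7.62 and 5.33 for H3K27ac. Both H3K27ac values exceeded both H3K27me3 values at Slit2 and Robo2 but not at Ntn1. Without H3K27me3 replicate 2 the axon guidance count was 44 of 63, beside 19.6% of all genes.

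Of 47 voltage-gated ion channel genes 28 had a stretch, 4 had both marks but no stretch, 12 had H3K27me3 only, 1 had H3K27ac only and 2 had neither. Potassium channels had a stretch in 15 of 23, calcium channels in 5 of 9 and sodium channels in 5 of 11. Kcna2 had 7.09 and 6.40 for H3K27me3, against 6.58 and 4.06 for H3K27ac, and Kcnc1 had 9.38 and 6.0 for H3K27me3, against 3.42 and 2.92 for H3K27ac. The marks overlapped at Kcna2 and did not at Kcnc1. Kcna1, Kcna4 and Kcna6 had H3K27me3 only. Clustered protocadherins, adhesion proteins that give neurons their identity, had a stretch at 1 of 13 (7.69%), Pcdhac2, all read at either gene end. This was near the 10.7% of all genes. Of 11 RNA-binding genes of the Igf2bp, Lin28, Elavl and Msi families, 3 (27.3%) had a stretch (Igf2bp2, Elavl2 and Elavl3), beside 10.7% of all genes.

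Immediate early genes, which respond within minutes to signals, were among the lists with the highest share. Of 23 such genes 17 had a stretch, 1 had both marks but no stretch and 5 had H3K27ac only. All 4 Fos genes, all 4 Egr genes and all 3 Nr4a genes had one. Fos had 4.02 and 3.05 for H3K27me3, against 13.4 and 10.5 for H3K27ac, and Junb had 4.69 and 3.23 for H3K27me3, against 18.7 and 11.2 for H3K27ac. Fosl1 had 10.7 and 5.98 for H3K27me3, against 3.64 and 4.01 for H3K27ac. Both H3K27ac values exceeded both H3K27me3 values at Fos and Junb, and the reverse held at Fosl1. Egr4 had the highest H3K27me3 of all stretches, 18.6 and 9.18 against 3.18 and 2.99 for H3K27ac. Jun, Jund and Ier2 had H3K27ac only, with 24.8 and 19.1 at Jun.

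Genes of replication and mitosis mostly had H3K27ac only, while all D cyclins had both marks. Of 18 listed cell cycle genes 1, Ccne1, had a stretch (2.86 and 2.81 for H3K27me3, against 5.34 and 5.53 for H3K27ac) and 17 had H3K27ac only, among them Mki67, Ccna2 and Ccnb1. All 3 D cyclins, which link signals to the cell cycle, had a stretch. Ccnd1 had 5729 bp with 7.10 and 4.48 for H3K27me3, against 6.18 and 5.60 for H3K27ac, and Ccnd2 had 6563 bp with 10.7 and 7.72 for H3K27me3, against 5.04 and 3.88 for H3K27ac. Of 7 CDK inhibitors 2 had a stretch. Cdkn1a, the p53 target p21, had 4.55 and 3.64 for H3K27me3, against 13.0 and 7.20 for H3K27ac, and Cdkn2a, a classical PRC2 target, had 12.3 and 5.84 for H3K27me3, against 3.65 and 3.23 for H3K27ac. Cdkn1b and Cdkn2b had both marks but no stretch and Cdkn1c had H3K27me3 only. None of 57 ribosomal protein genes had a stretch and 55 had H3K27ac only, among them Rpl3, Rpl4 and Rpl5. Without H3K27me3 replicate 2 the counts were 8 of 57 for ribosomal protein genes and 4 of 18 for the cell cycle list, both near the 19.6% of all genes with a stretch under that setting. Among 12 housekeeping genes 1 (8.33%), Gusb, had a stretch, near the 10.7% of all genes.

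The genes for the Polycomb machinery itself had H3K27ac only or both marks. Of 12 PRC2 genes, 10 had H3K27ac only, with Ezh1, Ezh2, Eed and Suz12 among them. The other 2 (16.7%) had a stretch, a count too small to be set apart from the 10.7% of all genes. The 2 were accessory subunits, Phf19 with 6.70 and 4.22 for H3K27me3, against 4.38 and 3.12 for H3K27ac, and Epop with 10.1 and 6.16 for H3K27me3, against 5.01 and 3.59 for H3K27ac. Of 20 genes of PRC1, which binds H3K27me3 and ubiquitinates H2A, 7 had a stretch (among them Ring1, Bmi1, Pcgf5, Cbx7, Cbx8 and Kdm2b), 3 had both marks but no stretch and 10 had H3K27ac only. Bmi1 had 6.12 and 3.87 for H3K27me3, against 12.2 and 7.55 for H3K27ac. Cbx8 had 9.84 and 6.90 for H3K27me3, against 12.5 and 7.48 for H3K27ac. Without H3K27me3 replicate 2 the PRC1 count was 12 of 20, beside 19.6% of all genes.

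Markers of other cells that the selection could hold gave small counts, to be read beside the 10.7% of all genes with a stretch. Of the other epithelial lists, genes of horizontal basal cells, the reserve stem cells, had a stretch in 5 of 12 (Icam1, Itga6, Itgb4, Egfr and Cdh3), while the defining genes Krt5 and Trp63 had no bases covered by both libraries of either mark and Krt14 had both marks but no stretch. Sustentacular cell genes had one in 4 of 12 (Sox2, Krt8, Notch2 and Hes1), and the enzyme genes Cyp2g1 and Cbr2 had H3K27ac only. Bowman's gland genes had one in 2 of 8 (Sox9 and Aqp5), respiratory epithelium genes in 3 of 12 (Foxj1, Tekt1 and Gmnc) and microvillar and tuft cell genes in 2 of 12 (Foxi1 and Coch). Aqp5, a water channel of glands, had a stretch of 7882 bp with 5.34 and 4.91 for H3K27me3, against 6.56 and 4.82 for H3K27ac.

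For cells outside the epithelium, mast cell genes had a stretch in 2 of 10 (Gata2 and Kit), melanocyte genes in 2 of 8 (Sox10 and Kit), leukocyte genes in 2 of 12 (C1qa and C1qb), stroma and endothelium genes in 4 of 12 (Col1a1, Pdgfrb, Cdh5 and Kdr) and olfactory ensheathing glia genes in 6 of 9 (among them Sox10, Ngfr, Foxd3, Erbb3 and Apoe). The counts of 2 genes in the mast cell, melanocyte and leukocyte lists are too small to be set apart from the 10.7% of all genes. Besides its 2 genes with a stretch, the leukocyte list had 3 with both marks but no stretch, 2 with H3K27ac only, 1 with H3K27me3 only and 4 with neither. The mast cell list had 1 with H3K27ac only, 1 with H3K27me3 only and 6 with neither. In the melanocyte list these numbers were 2, 1 and 3. The defining mast cell gene Cpa3 and the leukocyte gene Ptprc were without a peak in all 4 libraries, and the melanocyte gene Tyr had an H3K27me3 peak in replicate 1 only. Gata2 had 12.3 and 7.50 for H3K27me3, against 4.53 and 4.19 for H3K27ac, Sox10 had 6.81 and 5.0 for H3K27me3, against 4.44 and 3.52 for H3K27ac, and C1qa had 5.80 and 4.68 for H3K27me3, against 4.96 and 3.78 for H3K27ac. Both H3K27me3 values exceeded both H3K27ac values at Gata2 and Sox10, and the marks overlapped at C1qa. The other genes with a stretch in the mast cell, melanocyte and leukocyte lists were Kit and C1qb. The marks overlapped at Kit, and C1qb had 3.26 and 2.76 for H3K27me3, against 5.18 and 3.39 for H3K27ac. The part of such cells in any stretch was not tested.

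Fold enrichment of the H3K27me3 peaks and of the H3K27ac peaks that held the stretches was nearly unrelated in rank. Median fold enrichment over the 3750 stretches was 4.64 and 3.72 for H3K27me3, against 5.35 and 4.24 for H3K27ac. In peaks of H3K27me3-only regions it was 3.87 and 3.38, and in peaks of H3K27ac-only regions it was 4.78 and 3.95. Stretches had to keep 500 bp in all 4 libraries, and those regions only in both libraries of their mark. The rule thus favors higher values in the stretches. Across stretches Spearman's rho was 0.77 between the H3K27me3 libraries and 0.84 between the H3K27ac libraries, but -0.02 to -0.08 between a library of one mark and a library of the other. These are correlations across regions, which are not independent and share their libraries, so no p is given. Each value is that of the whole peak and not of the stretch. All stretches were kept for a called peak in all 4 libraries, so places with low values of either mark are missing. The correlations thus hold for the chosen stretches alone. Both H3K27ac values lay above both H3K27me3 values in 1579 stretches (42.1%), and the reverse held in 724 (19.3%). Fold enrichment of different antibodies is not on a common scale, so neither count says which mark was more abundant. Replicate 1 exceeded replicate 2 in 90.1% of stretches for H3K27me3 and in 86.0% for H3K27ac.

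**Figure D4:**
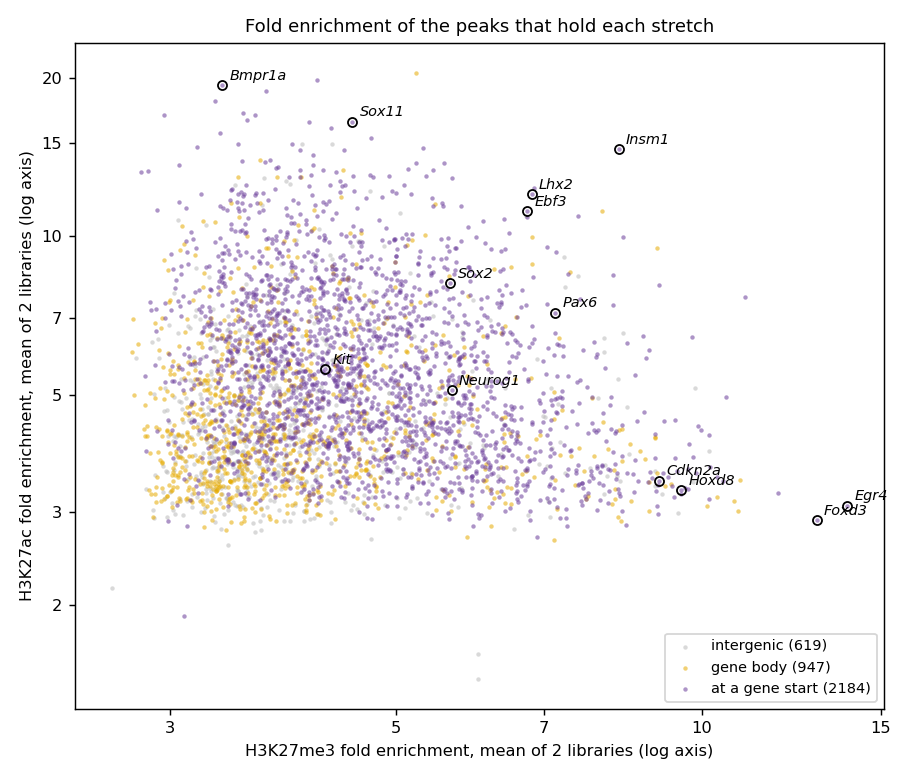
Mean fold enrichment of the H3K27me3 peaks (x axis, log scale) and of the H3K27ac peaks (y axis, log scale) that hold each of the 3750 stretches, colored by place. Circled genes range from Bmpr1a (21.1 and 17.6 for H3K27ac) at the upper left to Egr4 (18.6 and 9.18 for H3K27me3) at the lower right, and Kit lies in the middle.

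The peaks under a stretch differed in their significance between libraries. A −log10 q of at least 5 was reached by 37.3% and 9.57% of stretches in the H3K27me3 libraries. In the H3K27ac libraries 71.0% and 36.8% of stretches reached this limit. Of the peaks in regions of either mark alone, 15.7% and 5.65% (H3K27me3) and 59.7% and 33.6% (H3K27ac) reached the limit. Those regions had to keep 500 bp in both libraries of their mark, but stretches in all 4 libraries. The peaks that held stretches were longer, with medians of 2625.5 and 2361.5 bp against 1673 and 1880 bp for H3K27me3. For H3K27ac the medians were 2376 and 1934.5 bp against 1782 and 1505 bp. The rule thus favors the stretches in this comparison as well. Among all peaks the shares were lower, at 5.96% and 2.35% (H3K27me3) and 30.8% and 18.6% (H3K27ac). All peaks include short ones and ones called in a single library, so the rule for stretches itself favors this contrast. Within its own list, the peak of a stretch lay at a median percentile of 89.5 and 80.7 for H3K27me3, against 79.9 and 74.4 for H3K27ac. These percentiles are taken among all peaks, so the rule favors high values here too. When all 4 peaks were asked to reach 5, 72 stretches were left, 65 of them at a gene start. Among them were Pax6, Insm1, Sox9, Olig2, Sox21, Zeb2, Foxa1, Foxc1, Egr2, Atf3, Nr4a3 and Cbx8. They also include the intergenic stretch at chr2:98666689-98667314, with low folds of 1.66 in H3K27me3 replicate 2 and 1.79 in H3K27ac replicate 2.

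Stretches away from protein-coding starts had lower median fold enrichment than those at starts. At starts the median fold enrichment was 5.10 and 3.92 for H3K27me3, against 5.93 and 4.70 for H3K27ac. In gene bodies it was 4.09 and 3.47 for H3K27me3, against 4.62 and 3.84 for H3K27ac. Between genes it was 4.03 and 3.47 for H3K27me3, against 4.55 and 3.74 for H3K27ac. Of the 1566 stretches away from such starts, 203 overlapped the start window of a long noncoding RNA gene. The longest in a gene body was 7000 bp at Six3, a forebrain and placode factor, with 7.86 and 5.27 for H3K27me3, against 7.71 and 6.32 for H3K27ac. Between genes the longest were 7217 bp near Cbx8 (chr11:119052372-119059588), 5467 bp near Sox2 (chr3:34659907-34665373) and 4965 bp near Emx2 (chr19:59467073-59472037). The one near Sox2 lay 9.91 to 15.4 kb downstream of the Sox2 start and had 6.32 and 4.58 for H3K27me3, against 8.14 and 5.98 for H3K27ac, each a little below the value at the start itself. Neurog1 had an intergenic stretch of 3319 bp that lay 6.53 to 9.85 kb upstream of its start, with 5.51 and 4.24 for H3K27me3, against 5.65 and 3.67 for H3K27ac.

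Promoters under both marks were rich in CpG, as were those with H3K27ac only, and those with H3K27me3 only were less so. The ratio of observed to expected CpG in the 300-base promoters (250 bases before to 50 after a start) had a median of 0.713 in the 1925 promoters of genes with a stretch, against 0.407 in 1996 with H3K27me3 only, 0.784 in 9803 with H3K27ac only and 0.164 in 5469 with neither. Promoters with both marks but no stretch had a lower ratio than those with a stretch, at 0.624. A ratio of at least 0.6 was found in 67.1% of promoters with a stretch, 30.4% with H3K27me3 only and 74.2% with H3K27ac only. Only 74.2% of the genes with a stretch had a promoter in the table, under the 80% needed, so the check is void for the genes as a whole and describes the promoters in the table alone.

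The share of promoters with a stretch did not keep rising with CpG content. By rising CpG ratio it was 1.54% under 0.2, 5.99% from 0.2 to 0.4, 14.3% from 0.4 to 0.6, 15.6% from 0.6 to 0.8, 12.4% from 0.8 to 1.0 and 9.05% above 1.0. H3K27me3 was most frequent from 0.4 to 0.6 (37.3%), and H3K27ac rose over all bins to 97.1%. Short motifs were searched on both strands of the 300 bases. CCGGAAG, the core letters of Ets-type sites, was found in 4.94% of promoters with a stretch, against 3.26% with H3K27me3 only, 20.9% with H3K27ac only and 11.9% of all. Among promoters with a CpG ratio of at least 0.6 the shares were 4.72%, 3.30%, 24.8% and 19.9% in the same order. GGGCGG was found in 70.6% of promoters with a stretch, 41.7% with H3K27me3 only, 64.1% with H3K27ac only and 47.0% of all. CCAAT was found in 28.1% of promoters with a stretch, 34.4% with H3K27me3 only, 39.2% with H3K27ac only and 38.1% of all. TATAAA was found in 7.27% with a stretch, 12.6% with H3K27me3 only, 6.17% with H3K27ac only and 12.7% of all. The E-box CAGCTG was found in 16.5% with a stretch, 20.7% with H3K27me3 only, 14.6% with H3K27ac only and 15.6% of all. The E-box CAGATG was found in 11.9% with a stretch, 16.0% with H3K27me3 only, 11.1% with H3K27ac only and 14.6% of all. A match of letters is not a bound site.

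**Figure D5:**
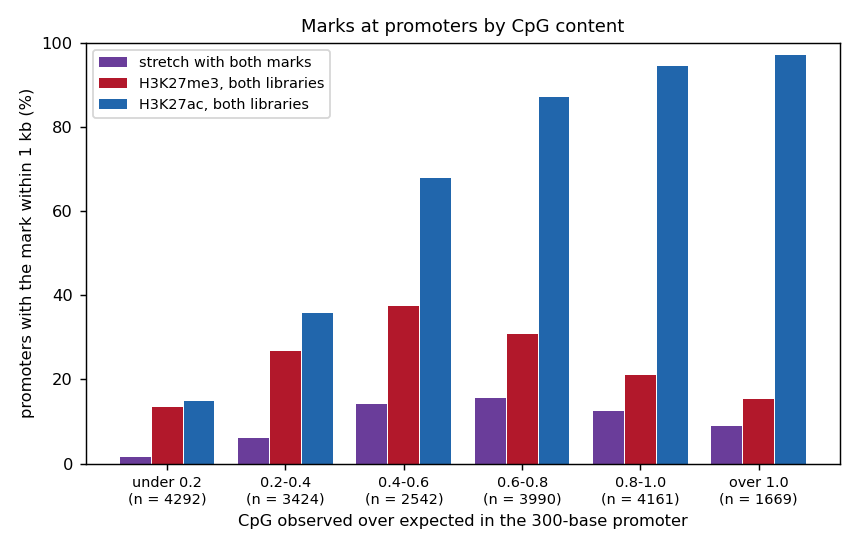
Share of promoters (y axis, %) with a stretch, with H3K27me3 in both libraries or with H3K27ac in both libraries within 1 kb, by the ratio of observed to expected CpG in the 300-base promoter (x axis, number of promoters in brackets). The share with a stretch is highest at 15.6% in the bin from 0.6 to 0.8 and is 9.05% above 1.0, while H3K27ac rises to 97.1%.

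Pairs with H3K27me3 replicate 1 shared more stretches than pairs with H3K27me3 replicate 2. The lists differed in length, at 99.1 and 89.4 Mb for H3K27me3 and 110.2 and 85.2 Mb for H3K27ac (replicates 1 and 2). Pairs of 1 library of each mark gave 12909 stretches for H3K27me3 replicate 1 with H3K27ac replicate 1, 9914 for H3K27me3 replicate 1 with H3K27ac replicate 2, 7752 for H3K27me3 replicate 2 with H3K27ac replicate 1 and 5898 for H3K27me3 replicate 2 with H3K27ac replicate 2. The pair that shares an input was the second largest, with an overlap of 14.6 Mb, which was 14.8% of its H3K27me3 list and 17.2% of its H3K27ac list. The pair of first replicates overlapped by 19.5 Mb, or 19.6% and 17.7% of its lists. For H3K27me3 replicate 2 the shares were 13.2% and 10.7% with H3K27ac replicate 1 and 9.85% and 10.3% with H3K27ac replicate 2. The effect of the shared input was not tested. Without H3K27me3 replicate 2 the intersection of the other 3 lists gave 8485 stretches and 4057 genes, and without H3K27ac replicate 2 it gave 5662 stretches and 2801 genes.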

How the data were processed

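Per the submitters' processing notes, the authors used fastp, Bowtie, Picard and MACS2 with GRCm38/mm10; the sources used here give no versions or settings. The deposited broad-peak lists, 1 per library and without headers, hold a fold (ratio) of signal over input, a −log10 p, a −log10 q and a score for each peak. In the deposited lists the score equals 10 times the −log10 q as a whole number in nearly all peaks, and the smallest −log10 q lies just above 1, a q of 0.1. Read depth is unknown, input libraries have no peak list here, and the number of libraries limits precision. No p-value was computed.

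Peaks on chromosomes 1 to 19 were intersected base by base and stretches of at least 500 bp were kept. The H3K27me3-only regions are stretches of at least 500 bp covered in both H3K27me3 libraries that overlap no base covered in both H3K27ac libraries, and the H3K27ac-only regions are the reverse. A gene is at a stretch if at least 1 bp of it lies within 1 kb of a RefSeq start (16457 of 20665 protein-coding genes, 79.6%) or, where none is known, of either gene end. Gene classes use the same windows with bases covered in both libraries of a mark. Named genes are those at the 15 longest stretches, at the 15 with the best worst-library rank, every progenitor gene listed, and up to 6 members with and 3 without a stretch of every other list; further genes, among them Bmpr1a, Egr4, Hoxd8, the genes of single families and the Neurog2, Ezh2, Ebf1 and Rpl31 promoters, were chosen after their values were seen. Some genes that the rule names are not reported here. The members and the lists were chosen with earlier results of these data known. Alternatives were other q limits, lengths, gaps and start windows and leaving out each library. The code was checked on simulated intervals. Python 3.11.15, numpy 2.4.6, pandas 2.3.3, scipy 1.17.1 and matplotlib 3.10.9 were used.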

Additional observations from a re-analysis of the deposited data

Results flagged for a closer look

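On chromosome X, outside the chromosomes used above, the same intersection gave 60 stretches of at least 500 bp that summed to 75.6 kb. They are listed because they are a signal in data that no comparison here uses.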

How the results depend on the processing

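No paired analysis was possible because the results come from no test, and the shared input crosses the replicate numbers. With a −log10 q of at least 2 in every library there were 1737 stretches (3750 as reported), 2.89 Mb (4.95 as reported), a median length of 1339 bp, 73.3% at a start, 1310 genes, 180 listed genes, a CpG ratio of 0.726 and median mean folds of 4.85 for H3K27me3 and 5.37 for H3K27ac. With at least 5 the values were 72, 0.189 Mb, 2108 bp, 90.3%, 68, 19, 0.778, 6.73 and 6.56 in the same order. With a minimum of 1000 bp there were 1954 stretches, 1371 genes, a median of 1545.5 bp, 68.6% at a start and folds of 4.46 for H3K27me3 and 5.35 for H3K27ac. With 250 bp the median was 772.5 bp, the share at a start 52.9% and the folds 4.03 for H3K27me3 and 4.53 for H3K27ac. The share at a start was 63.7% with windows of 2.5 kb, 46.6% with 250 bases before to 50 after, and 43.8% with known starts only, an alternative chosen after seeing the data.

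Leaving out each library in turn gave 4403 to 8485 stretches, 5.76 to 10.6 Mb, median lengths of 955 to 1038 bp, 46.9 to 53.8% at a start, 2387 to 4057 genes, 285 to 365 listed genes and CpG ratios of 0.698 to 0.726. Folds were 3.49 to 4.18 for H3K27me3 and 3.97 to 4.91 for H3K27ac. For a mark that lost a library, the fold is that of its other library alone and not a mean. Replicate 1 was higher in 90.1% (H3K27me3) and 86.0% (H3K27ac) of the 3750 stretches, so these ranges also depend on which library was kept. The counts moved by over 1.5 times without H3K27me3 replicate 2 (8485 stretches, 10.6 Mb, 4057 genes) and, for stretches and length, without H3K27ac replicate 2 (5662 stretches, 7.70 Mb). In single lists, leaving out H3K27me3 replicate 2 (19.6% of all genes then) gave 7 sustentacular genes, 10 retinoic acid genes, 5 of the Igf2bp list, 3 clustered protocadherins, 3 PRC2 genes and 3 tuft and 3 leukocyte genes. Without H3K27ac replicate 2 (13.6% of all genes) there were 4 leukocyte genes, and without H3K27ac replicate 1 (11.6%) there were 2 Hox genes, 2 clustered protocadherins and 1 ribosomal protein gene. Joining gaps of up to 200 bp could change no stretch, because peaks of a library lay at least 709 bp apart. With gaps of up to 1000 bp joined, an alternative that was not planned, there were 3722 stretches. Unknown read depth limits all peak calls, and the cause of these shifts was not tested.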

Other observations

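In 4 stretches at least 1 library had a fold enrichment under 2, and 3746 stretches are left without them. At chr2:98666689-98667314, with no annotated gene, the folds were 3.60 and 1.66 for H3K27me3, against 2.51 and 1.79 for H3K27ac, with −log10 q of 69.4 and 9.0 for H3K27me3, against 38.6 and 17.5 for H3K27ac. At the start of Sfi1 (chr11:3132672-3133278) they were 3.65 and 2.54 for H3K27me3, against 1.85 and 1.97 for H3K27ac. The other 2 lie side by side on chromosome 17. At chr17:39844165-39846335 the folds were 7.41 and 4.64 for H3K27me3, against 1.43 and 1.46 for H3K27ac. At chr17:39847473-39848743, which overlaps the ribosomal RNA pseudogene Rn18s-rs5 and the noncoding RNA gene AY036118, they were 7.41 and 4.64 for H3K27me3, against 1.55 and 1.67 for H3K27ac.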
